A study of Mus musculus with 3 samples.

Results

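miR-143 and miR-145 are small regulatory RNAs cut from neighbouring hairpins of one gene locus, and each hairpin can release a 5p and a 3p strand, its arms. The rows described here are those of the deposited table named miR-143 or miR-145a, with a 5p or 3p arm. There were 4 of them among 1251 mature microRNAs (miRNAs) listed, and no row was named miR-145 without the letter. The samples were epididymal (visceral) white fat pads of 3 mice of the C57BL/6J strain, numbered 1, 3 and 9, whose total RNA was profiled by small RNA sequencing. From an age of 5 to 6 weeks the mice ate for 11 weeks a high-fat diet that contained 6.75% of the fish-oil fatty acid eicosapentaenoic acid (EPA). By energy this diet was 45% fat, 20% protein and 35% carbohydrate, and a fast of 4 h preceded tissue collection. This was the 1 group analysed here, and the diet's effect cannot be read from it. The question of the study was which miRNAs are present in visceral fat under this diet. Only the sample numbers and a note of 3 samples per group mark the samples as separate animals, so the spread and the p-values may be technical.

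In mouse and human tissue, the miR-143 and miR-145 locus is known as the leading miRNA locus of smooth muscle, pericytes and fibroblasts, where serum response factor and its partner myocardin switch it on. miR-145 represses Klf4 and Klf5, transcription factors of the growing smooth muscle cell, and miR-143 represses Elk1, a partner of serum response factor. In fat, miR-143-3p is known for promoting adipocyte differentiation in cultured preadipocytes, and a rise in fat of obese mice has been reported. miR-145-5p is known as an inhibitor of adipocyte differentiation. One strand of a hairpin is usually loaded into the silencing complex, and the other is mostly degraded.

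The fibroblast miRNAs of the miR-199 family serve below as companions of the cluster, and their sequences are shown because rows of this family cannot all be told apart. They are RefSeq sequences on GRCm38.p6, written 5′ to 3′ with the seed, bases 2 to 8, in capitals.
miR-199a-5p: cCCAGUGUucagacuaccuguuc
miR-199a-3p: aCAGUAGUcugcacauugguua
miR-199b-3p: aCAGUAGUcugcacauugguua
miR-214-3p: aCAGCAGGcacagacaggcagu
miR-199a-3p and miR-199b-3p are the same sequence, made from Mir199a-1 (chr9:21496498-21496519, minus strand), Mir199a-2 (chr1:162217883-162217904, plus strand) and Mir199b (chr2:32318524-32318545, plus strand), and their rows held identical values. miR-199a-5p has its own seed, and miR-214-3p (chr1:162223438-162223459, plus strand) shares neither.

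The values are deposited log2 normalized counts, whose floor of 3.32 corresponds to a linear value of 10. The linear value above that floor is called the normalized count here. The columns of the 3 mice hold nearly the same set of values: 85 of the top 100 ranks agreed within 1e-06. A difference between mice is therefore close to a difference in rank. Read depth per library is unknown, and no counting interval can be given.

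On mouse build GRCm38, the assembly of mm10, the GENCODE M21 annotation places Mir143 at chr18:61649196-61649258 and Mir145a at chr18:61647825-61647894, both on the minus strand. Mir143 is therefore upstream in the direction of transcription, and 1301 bases separate the hairpins. Both are annotated as miRNA genes, and no other annotated gene overlaps the span from one to the other. The long noncoding RNA gene Carmn, on the same strand, spans chr18:61649625-61665537 on the Mir143 side, with 366 bases between its 3′ end and Mir143. Another long noncoding RNA gene, Bvht, lies on the opposite strand 352 bases beyond Mir145a (chr18:61639542-61647472). A related hairpin, Mir145b, is annotated at chr18:69022199-69022273, and its product miR-145b was at the lowest value of the scale in each of the 3 mice.

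The leading arms of both hairpins were abundant in this fat, miR-143-3p far more so than miR-145a-5p. miR-143-3p stood at 17.20 log2 units in mouse 1, 17.20 in mouse 3 and 16.90 in mouse 9, with a mean of 17.10 ± 0.17 (SD, n = 3). Its rank among all miRNAs was 4 in mice 1 and 3 and 5 in mouse 9. For miR-145a-5p the values were 14.31, 14.18 and 14.11 in mice 1, 3 and 9, with a mean of 14.20 ± 0.10, at ranks 22, 24 and 25. Both leading arms were lowest in mouse 9, and their ranges did not overlap.

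The minor arms were much lower, and their order was the opposite of that of the leading arms. miR-145a-3p had 8.90 log2 units in mouse 1, 8.997 in mouse 3 and 8.67 in mouse 9, a mean of 8.86 ± 0.17 (SD, n = 3). miR-143-5p stood at 6.12, 5.64 and 6.35 in mice 1, 3 and 9, with a mean of 6.04 ± 0.36. It was the lowest of the 4 in every mouse, at ranks 209, 228 and 203, and yet above the floor in each. In normalized counts, miR-143-5p held 59.5, 40.0 and 71.4 in mice 1, 3 and 9. In the same mice miR-145a-3p held 468, 501 and 397. The mouse with the lowest level was mouse 9 for miR-145a-3p and mouse 3 for miR-143-5p. With so few counts of miR-143-5p and an unknown read depth, this difference in order cannot be told from counting noise.

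**Figure D1:**
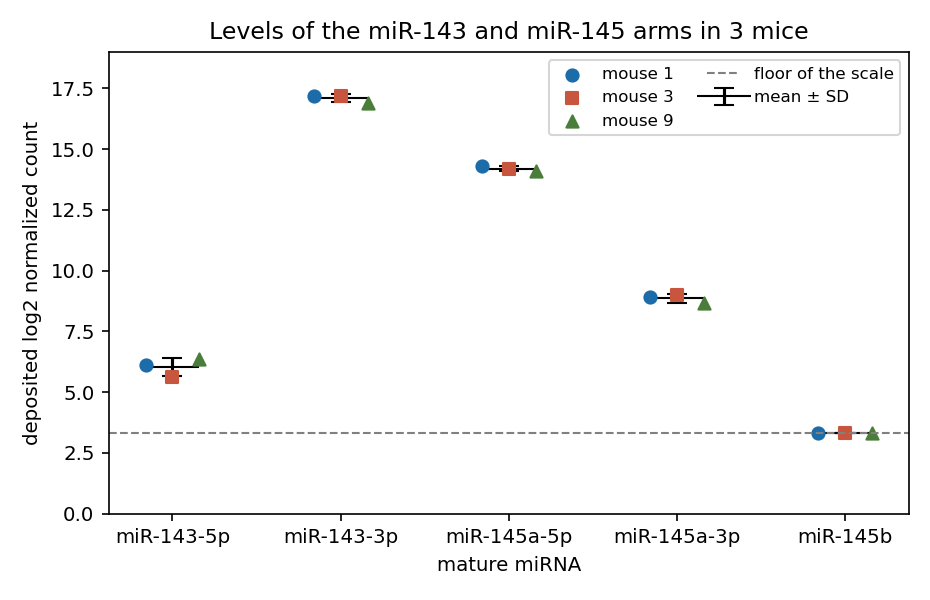
Deposited log2 normalized count of each arm of miR-143 and miR-145a, and of miR-145b, in mice 1, 3 and 9, with points for mice, horizontal marks and whiskers for mean ± SD, and a dashed line at the floor of the scale. miR-143-3p leads at a mean of 17.10, followed by miR-145a-5p at 14.20, miR-145a-3p at 8.86 and miR-143-5p at 6.04, with no overlap between them, while miR-145b lies on the floor.

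In shares of the summed normalized counts, the 4 arms together took 7.12% in mouse 1, 7.05% in mouse 3 and 5.85% in mouse 9, a mean of 6.67% ± 0.714 (SD, n = 3). Nearly all of this was miR-143-3p, with 6.26%, 6.26% and 5.10% in mice 1, 3 and 9. miR-145a-5p added 0.841%, 0.771% and 0.735% in the same order of mice. miR-145a-3p averaged 0.0189% ± 0.00220 and miR-143-5p 0.00237% ± 0.000659. The rest of the table, 1247 rows of which most stood at the floor, held the remainder. A fall in share in bulk tissue cannot tell fewer cells of a type from less RNA per cell.

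The order miR-143-3p, miR-145a-5p, miR-145a-3p, miR-143-5p held in all 3 mice. The 6 pairs of members had no overlap in level, and the higher member was higher in 3 of 3 mice in each. The step of miR-145a-3p over miR-143-5p was 2.82 ± 0.52 log2 units (SD, n = 3), and that of miR-143-3p over miR-145a-5p was of like size, at 2.90 ± 0.11. With 3 mice the two-sided exact sign-flip test cannot give a p below 0.25, which was the p of all 6 pairs and also the value after Benjamini-Hochberg adjustment over them. These levels are read counts of miRNAs of nearly the same length and are not corrected for unequal capture of different sequences.

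For both hairpins the counts of one arm were in large excess, on opposite sides. For miR-143 the log2 ratio of 5p to 3p was -11.08 in mouse 1, -11.56 in mouse 3 and -10.56 in mouse 9, so the 3p arm was higher in every mouse. For miR-145a the same ratio was 5.40, 5.18 and 5.44 in mice 1, 3 and 9, with the 5p arm higher in every mouse. On the linear scale, 3p counts were 2528, 3764 and 1717 times the 5p counts for miR-143. For miR-145a, 5p counts were 43.2, 37.1 and 44.5 times the 3p counts. The minor strand thus made up 0.0414% ± 0.0159 of the miR-143 counts and 2.36% ± 0.232 of the miR-145a counts (SD, n = 3).

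Among 129 hairpins with both arms listed and the larger at a mean of at least 100 normalized counts, the arms were compared with the moderated test of limma against a ratio of 0, two-sided, and p-values were adjusted over all of them by Benjamini and Hochberg. The mean log2 ratio of 5p to 3p was -11.06 for miR-143 (SE 0.23, adjusted p = 1.30e-06) and 5.34 for miR-145a (SE 0.15, adjusted p = 2.77e-06). Passing this test is common: 46.5% of the hairpins passed with the 3p arm higher and 51.2% with the 5p arm higher, or 97.7% in all, leaving 3 hairpins that did not pass. The sizes differ more. miR-143 had the lowest signed ratio of all 129, just below miR-29a at -10.68, whose 5p arm was not seen above the floor in any mouse. In size, whichever arm leads, miR-143 was at place 4 of 129, behind hairpins that lean to 5p. miR-145a lay near the middle in size, at place 63 of 129. In the order of signed ratios it stood between miR-322 at 5.09 and miR-99a at 5.37. The median size over the 129 was 5.14 log2 units.

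Because many minor arms sat on the floor, the ratio of such hairpins depends on that floor, and so do these places. With a pseudocount of 1 in place of 10, miR-143 was at place 6 from the lowest, at -11.28, and at place 15 in size. With that pseudocount miR-29a was the lowest at -14.00, and miR-145a was at place 92 in size. Among the 62 hairpins with both arms above the floor in all mice, miR-143 was the second largest in size and miR-145a was at place 25, against a median size of 4.19. The lean of miR-143 exceeded that of miR-145a by 5.68, 6.37 and 5.12 log2 units in mice 1, 3 and 9, a mean of 5.72 ± 0.63 (SD, n = 3). Its exact sign-flip p of 0.25 is the smallest that 3 mice allow.

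**Figure D2:**
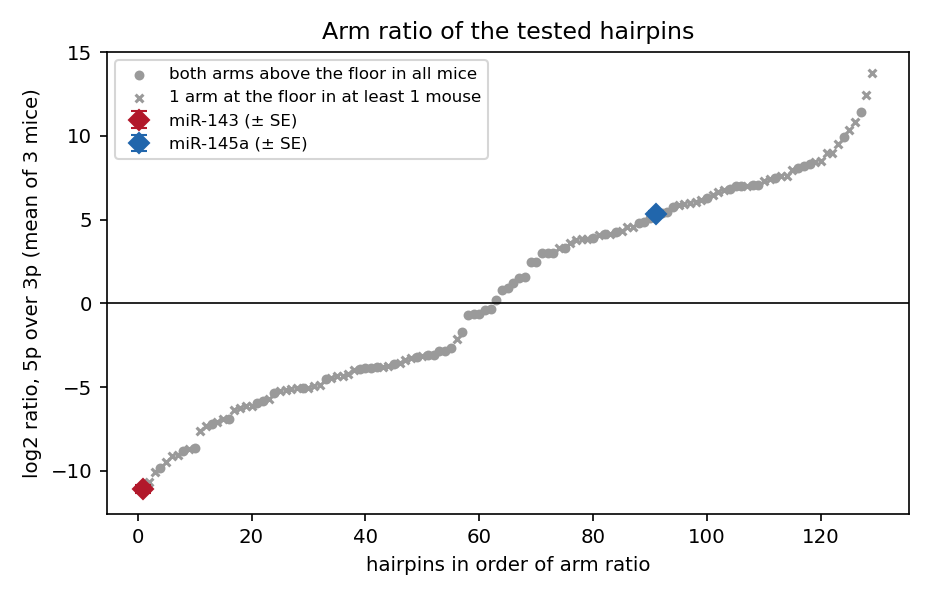
Mean log2 ratio of the 5p over the 3p arm in 3 mice (vertical axis) for the 129 tested hairpins in order of that ratio (horizontal axis), with circles for hairpins whose arms are both above the floor in all mice, crosses for the others, and diamonds with SE bars for miR-143 and miR-145a. miR-143 is the lowest point at -11.06 on this scale, though not with a pseudocount of 1, and miR-145a lies among the middle of the hairpins that lean to 5p, at 5.34.

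The 2 hairpins differed in level in the same direction in every mouse, counting the leading arm of each. miR-143-3p exceeded miR-145a-5p by 2.89, 3.02 and 2.79 log2 units in mice 1, 3 and 9, or 7.44, 8.11 and 6.93 times in normalized counts. The mean difference was 2.90 ± 0.11 log2 units (SD, n = 3). For the minor arms the difference of miR-143-5p from miR-145a-3p had the other sign, at -2.78, -3.35 and -2.32. Its mean was -2.82 ± 0.52, with a wider spread between mice.

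Neighbouring hairpins on one strand within 10 kb, each the sole source of its product and with the larger member at a mean of at least 100 normalized counts, formed 43 pairs. By the same limma test on the upstream minus the downstream leading arm, all 43 pairs (100%) passed the adjusted threshold of 0.05, and 63 of 79 passed without the filter on level. The upstream hairpin was higher in 51.2% and the downstream one in 48.8%, and miR-143 over miR-145a was among the first kind (2.90 log2 units, SE 0.09, adjusted p = 3.00e-09). Passing is therefore no distinction of the cluster. In size its difference was at place 29 of 43, below the median of 3.86. Because members of some other pairs sat on the floor, this place depends on the floor. The place was 30 of 43 with a pseudocount of 1. With a pseudocount of 40 it was 20 of 43, on the other side of the middle. On the deposited scale, the neighbours of the cluster in the order of signed differences were miR-298 over miR-296, with 2.88 ± 0.59, and miR-17 over miR-18a, with 3.65 ± 0.43 (SD, n = 3).

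The spread of the difference between mice, an SD of 0.11 log2 units for miR-143 and miR-145a, was at place 3 of 43 from the smallest, against a median of 0.35. No test was made on this order, which rests on 3 mice: without mouse 1 the SD was 0.16 at place 13 of 43, and without mouse 3 it was 0.07 at place 6 of 42.

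**Figure D3:**
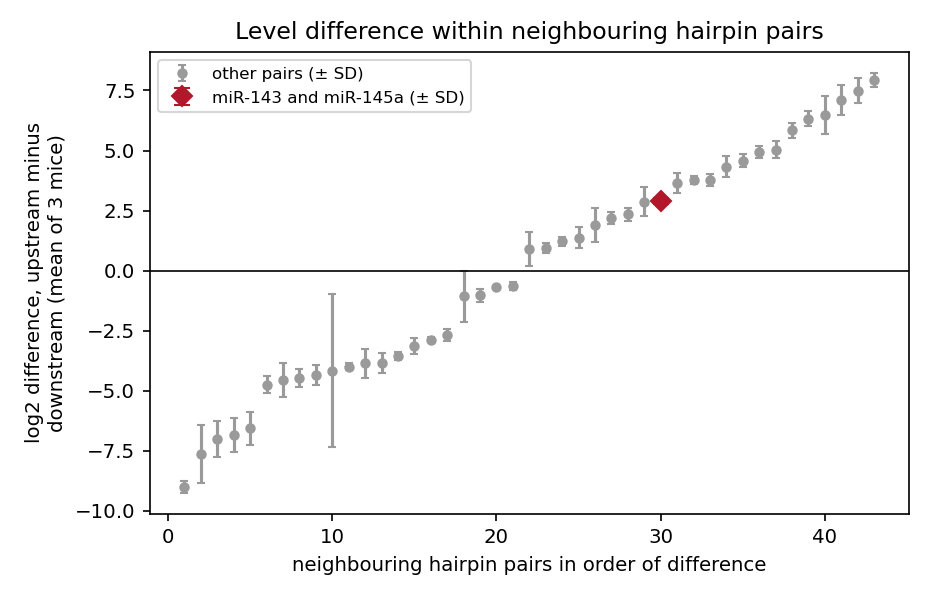
Mean log2 difference between the leading arms of the upstream and the downstream hairpin over 3 mice (vertical axis) for the 43 neighbouring pairs in order of that difference (horizontal axis), with bars for SD. The miR-143 and miR-145a pair, a diamond, lies at 2.90 with an SD of 0.11, a bar hidden by its symbol.

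On the deposited scale, the SDs of 3 of the 4 members over the mice were below the median of miRNAs of like level. miR-143-5p, with the largest SD of the 4 at 0.36 log2 units, was not compared. The filter of a mean of at least 100 normalized counts kept 194 miRNAs, among them 3 of the 4 members; miR-143-5p, with a mean of 57.0, did not pass. Of these 194, 72 had a smaller SD than miR-143-3p (0.17 log2 units), 29 a smaller one than miR-145a-5p (0.10) and 71 a smaller one than miR-145a-3p (0.17). Among miRNAs of like level, up to 20 on each side, the median SD was 0.22 for miR-143-3p (24 neighbours), 0.19 for miR-145a-5p (40 neighbours) and 0.22 for miR-145a-3p (40 neighbours). All 3 members were below it, which is a description with no test. When the columns were rescaled by median ratios, the SD was 0.218 for miR-143-3p, 0.120 for miR-145a-5p and 0.223 for miR-145a-3p. The medians of the neighbours were not recomputed on that scale, so the comparison was made on the deposited scale only. In the same order, 10 of 24, 8 of 40 and 14 of 40 neighbours had a smaller SD than the member.

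**Figure D4:**
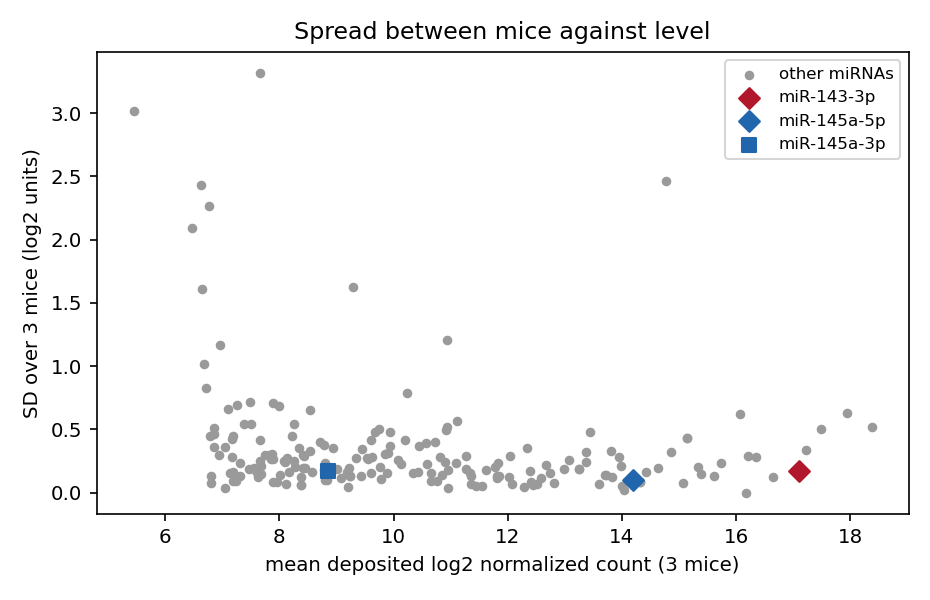
SD over 3 mice in log2 units (vertical axis) against the mean deposited log2 normalized count (horizontal axis) for the 194 miRNAs that average 100 normalized counts or more, with miR-143-3p, miR-145a-5p and miR-145a-3p marked. The marked points have SDs of 0.17, 0.10 and 0.17 and lie in the lower part of the cloud.

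Of the 4 members, 3 were lowest in mouse 9 (miR-143-3p, miR-145a-5p and miR-145a-3p), while 52 of the 194 filtered miRNAs (26.8%) were lowest in that mouse alone. In mouse 9 the deviation from the own mean was -0.20 log2 units for miR-143-3p, -0.09 for miR-145a-5p and -0.19 for miR-145a-3p. miR-143-5p went the other way there, at 0.31 above its mean.

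In level, the nearest miRNAs to miR-143-3p were miR-10b-5p and miR-10a-5p above it and let-7c-5p and let-7a-5p below it. The Hox-cluster miRNAs were not separated from it: miR-143-3p minus miR-10a-5p was -0.13 ± 0.37 log2 units (SD, n = 3), with miR-143-3p higher in 1 of 3 mice. Against miR-10b-5p the difference was -0.38 ± 0.60, also with miR-143-3p higher in 1 mouse. It was above let-7c-5p, a growth-restraining miRNA, in 3 of 3 mice, by 0.45 ± 0.25.

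miR-145a-5p lay between miR-148a-3p and miR-16-5p above it, both at 14.32 ± 0.08, and miR-92a-3p and miR-29a-3p below it. It was lower than miR-148a-3p in every mouse, by a steady difference of -0.12 ± 0.02 log2 units (SD, n = 3), and above miR-92a-3p in every mouse, by 0.16 ± 0.10. Its order against miR-16-5p was not the same in all mice. The minor arms were not separated from their neighbours in level, which were miR-615-3p, miR-106b-3p, miR-1843a-5p and miR-132-3p for miR-145a-3p. For miR-143-5p they were miR-5099, miR-92a-1-5p, miR-421-3p and miR-26b-3p.

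Likeness over the 3 mice was measured as the root mean square distance between values centred on each miRNA's own mean, among the 194. The closest to miR-143-3p were miR-1839-5p at 0.009 log2 units, miR-199a-3p and its identical row miR-199b-3p at 0.014, miR-30c-5p at 0.020 and let-7g-5p at 0.036, against a median of 0.245 over the non-members. Each of these had equal values in mice 1 and 3 and a lower one in mouse 9, as miR-143-3p did. The closest to miR-145a-5p were miR-361-3p at 0.011, miR-148a-3p at 0.012, miR-350-3p at 0.023, miR-106b-5p at 0.028 and miR-148a-5p at 0.033, against a median of 0.208. miR-143-3p and miR-145a-5p were 0.093 apart, miR-143-3p and miR-145a-3p 0.040, and miR-145a-5p and miR-145a-3p 0.114. The measure rests on 3 values each and favours miRNAs that vary little.

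Among miRNAs of smooth muscle and mesenchymal cells, all 10 listed, the 4 cluster arms included, exceeded the floor in every mouse, and the median level was 9.40 log2 units. For comparison, 287 of the 1251 miRNAs listed exceeded the floor in every mouse, and their median was 8.02. The cluster held ranks 1, 2, 6 and 10 of this list. miR-199a-3p, a miRNA of fibroblasts, had 13.36, 13.36 and 13.03 in mice 1, 3 and 9. miR-214-3p, made from the same antisense transcript of Dnm3 as miR-199a-2, had 10.13, 9.52 and 10.18.

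The levels of the fibroblast miRNAs were below the leading cluster arms in every mouse. The further members averaged 10.43 ± 0.16 for miR-199a-5p, 8.22 ± 0.45 for miR-199b-5p, 7.88 ± 0.31 for miR-152-3p and 6.86 ± 0.46 for miR-214-5p (SD, n = 3). Of the 6 list members outside the cluster, 4 were lowest in mouse 3 and 2 (33.3%) in mouse 9, miR-199a-3p and miR-152-3p. miR-199a-3p was the most abundant of the 6, with a mean share of 0.407% against 0.0570% for the next, miR-199a-5p. The count by member therefore does not show where their summed share was lowest. Of the 194 miRNAs that passed the filter on level, 76 were lowest in mouse 3 alone and 52 (26.8%) in mouse 9 alone. No test was made on these counts.

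Of the 8 miRNAs known to act on smooth muscle growth and phenotype, 7 exceeded the floor in every mouse, and the median was 11.28 log2 units. The growth-promoting miR-26a-5p averaged 17.95 ± 0.63 and miR-21a-5p 13.70 ± 0.14 (SD, n = 3). miR-221-3p averaged 11.62 ± 0.18 and its cluster partner miR-222-3p 10.94 ± 0.18, both known for driving smooth muscle cells out of the contractile state. miR-24-3p averaged 10.85 ± 0.14 and the inflammation-linked miR-146a-5p 9.20 ± 0.04. The muscle miRNAs of this list were uneven: miR-133a-3p had 11.94, 16.38 and 16.02 in mice 1, 3 and 9, and miR-1a-3p had the floor of 3.32, 5.53 and 3.44. miR-143-3p and miR-145a-5p were not low in mouse 1, where miR-133a-3p was. A link between them was not tested.

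The leading arms of the cluster belong to opposite lists of adipocyte differentiation. miR-143-3p was the highest of 16 promoting miRNAs, of which 15 exceeded the floor in every mouse and whose median was 13.34 log2 units. It supplied 5.87% ± 0.670 of the 18.0% ± 2.04 that this list held in all (SD, n = 3). Next in the list came miR-30a-5p at 16.18, miR-378a-3p at 16.07 and miR-30d-5p at 15.62. miR-145a-5p was the fifth of 16 inhibiting miRNAs, of which 12 exceeded the floor in every mouse, 3 were never seen and the median was 11.82. It supplied 0.783% ± 0.0539 of 12.04% ± 1.07, behind let-7c-5p, let-7a-5p, miR-27b-3p and let-7b-5p.

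The table lists miRNAs only, so the tissue label could be read against lists of miRNAs and not against messenger RNA markers of adipocytes. Markers of other cells were read beside the cluster in the same 3 mice, as summed shares. The endothelial list, with 5 of 5 above the floor and a median of 11.62, held 0.919%, 1.14% and 0.974% in mice 1, 3 and 9. It was led by miR-126-3p at 13.37 ± 0.32 and miR-126-5p at 12.67 ± 0.22 log2 units (SD, n = 3). The leukocyte list, with 5 of 7 above the floor and miR-155-5p at it, held 0.451%, 0.433% and 0.480% and was led by miR-150-5p at 12.81 ± 0.08. In this list miR-142-3p was near the floor, at 4.31, 3.32 and 3.83 in mice 1, 3 and 9, while miR-142-5p averaged 9.86 ± 0.30. Neither list had its lowest share in mouse 9.

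The striated muscle list, with 2 of 7 above the floor in all mice and miR-208a-3p and miR-499-5p at it, held 0.163%, 3.57% and 2.79% in mice 1, 3 and 9, nearly all of it miR-133a-3p. The epithelial list had 4 of 7 above the floor in all mice, 7 of 7 without mouse 9, and 2 of 7 at 10 normalized counts or more, where the striated list had 1. It held 0.0692%, 0.157% and 0.0378% and was led by miR-203-3p at 9.54 ± 0.27 and miR-205-5p at 9.28 ± 1.62 (SD, n = 3). The erythroid list, with 3 of 4 above the floor, held 2.39%, 1.51% and 1.38% and was led by miR-486-5p at 15.13 ± 0.43. In the testis list 8 of 9 stood at the floor in all mice, and miR-34c-5p, at 7.67 ± 0.15, was the exception. The testis list held 0.00905%, 0.00787% and 0.00733% in mice 1, 3 and 9. The epithelial, erythroid and testis shares were lowest in mouse 9, as was that of the cluster. The endothelial, leukocyte and striated muscle shares were not. The smooth muscle growth and phenotype list, at 18.4%, 12.6% and 11.7% in mice 1, 3 and 9, was also lowest there. So was the list lowered in obese fat, described below, at 2.99%, 4.73% and 2.14%. The adipogenesis-promoting list, which holds miR-143-3p, was lowest in mouse 9 too, at 17.9%, 20.1% and 16.0%. The same held for the smooth muscle and mesenchymal list and the list raised in obese fat, which also hold cluster arms. The adipogenesis-inhibiting list, which holds miR-145a-5p, was lowest in mouse 3, at 12.7%, 10.8% and 12.6%. The part of these lists in the cluster's values was not tested.

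**Figure D5:**
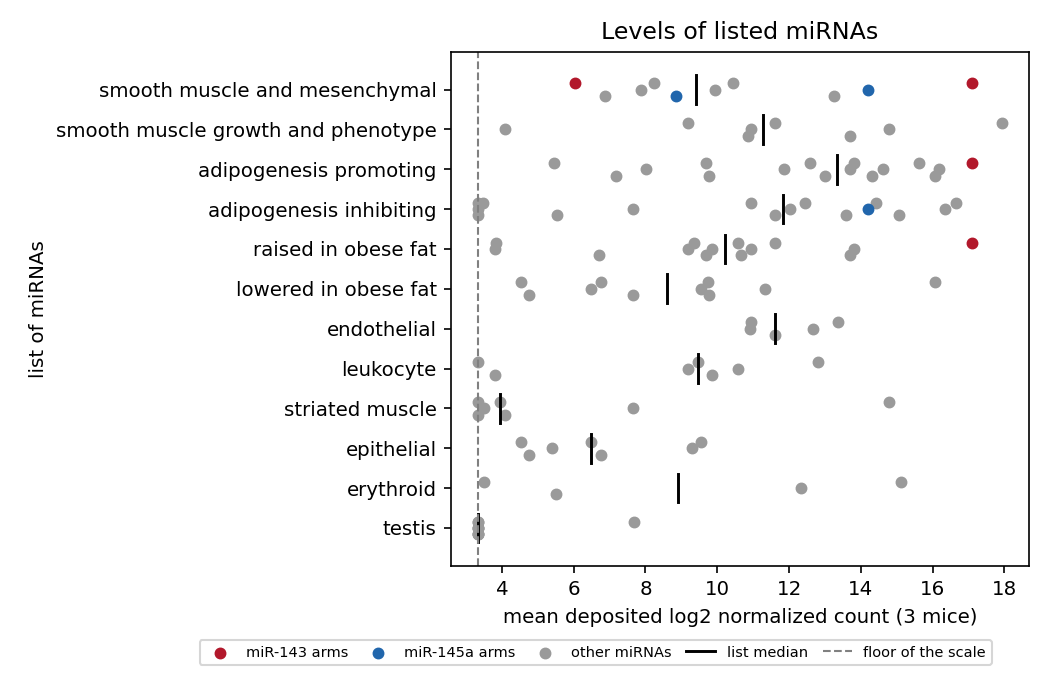
Mean deposited log2 normalized count over 3 mice (horizontal axis) of each miRNA in 12 lists (rows), with the list median as a vertical mark and the floor as a dashed line. The miR-143 arms are the highest and the lowest of the smooth muscle and mesenchymal list, miR-143-3p leads the adipogenesis-promoting list, and the testis list lies on the floor but for 1 miRNA.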

How the data were processed

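Small RNA libraries of 3 fat samples were made with the Illumina protocol, per the labels' protocols. The deposited values are log2 normalized counts, 1 per mature miRNA and mouse, per the file headers. As the design text of the series describes it, the authors used the Gunaratne pipeline, mapped reads to mm10 (also named per the submitters' processing notes), normalized counts to usable reads and added 40. The lowest value corresponds to 10, and 260 values lie between 10 and 40 on the linear scale, so 10 was taken as the constant. The nearly equal sorted columns resemble quantile normalization, which no source used here states. The sources used here name neither the aligner nor the release of miRNA names.

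Normalized counts were computed as the power of 2 of the deposited value minus 10, and tests ran on the deposited log2 scale. limma 3.58.1 in R 4.3.3 fitted within-mouse differences with a prior trended on level, and the rest was done in Python 3.11.15 (pandas 2.3.3, numpy 2.4.6, matplotlib 3.10.9). The limma step was tried on simulated data. In each hairpin of a neighbouring pair the arm with the higher mean was taken. Hairpin positions come from GENCODE M21. The miRNAs named were the members, the 2 nearest in level on each side, the 5 most alike, neighbours in arm ratio and in partner difference, and list members; miR-29a, miR-322, miR-99a, miR-298, miR-296, miR-17 and miR-18a come in by that rule. Members, lists and tests were chosen with earlier results of these data known. With 1 group, no second group was compared.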

Additional observations from a re-analysis of the deposited data

How the results depend on the processing

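The arm ratios of miR-143 and miR-145a and the difference of miR-143-3p from miR-145a-5p kept their direction and passed the adjusted threshold under every alternative run: pseudocounts of 1 and 40, other filters, median-ratio scaling, a prior without trend, other sets of hairpins or pairs, and leaving out each mouse. Over these, the miR-143 ratio of 5p to 3p ran from -11.32 to -10.52 log2 units (largest adjusted p 0.00113), the miR-145a ratio from 5.25 to 5.42 (0.000959) and the partner difference from 2.84 to 2.96 (0.00620). Leaving out 1 mouse gave -11.32 to -10.82, 5.29 to 5.42 and 2.84 to 2.96. The set of pairs with all arms listed was added after the data were seen.

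Counts of calls moved most where the number tested changed. With a mean of at least 1000, 39 hairpins had the 5p arm and 28 the 3p arm higher, against 66 and 60. With both arms above the floor in all mice, the counts were 33 and 26. Leaving out 1 mouse gave 63 to 66 and 53 to 56. For neighbouring pairs, a mean of at least 1000 gave 13 with the upstream and 10 with the downstream hairpin higher, against 22 and 21, and no filter gave 31 and 32 among 79 pairs, of which 79.7% passed. Leaving out 1 mouse gave 20 to 22 and 20.

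Among member levels, a pseudocount of 40 moved miR-143-5p to 6.59 from 6.04 log2 units. Without mouse 9, the SD of miR-143-3p was 0 and that of miR-145a-3p 0.07 log2 units, without mouse 3 that of miR-143-5p was 0.16, and without mouse 1 that of miR-145a-5p was 0.05. The 6 differences between members kept their sign under each pseudocount, the scaling and the omission of each mouse. The step of miR-145a-3p over miR-143-5p was below that of miR-143-3p over miR-145a-5p, but above it with a pseudocount of 1 (3.01 against 2.90 log2 units) and without mouse 9 (3.07 against 2.96). Leaving out 1 mouse, mean levels ran from 17.05 to 17.20 for miR-143-3p, 14.15 to 14.24 for miR-145a-5p, 8.79 to 8.95 for miR-145a-3p and 5.88 to 6.23 for miR-143-5p. The shares ran from 5.68% to 6.26%, 0.753% to 0.806%, 0.0180% to 0.0201% and 0.00207% to 0.00272% in the same order. The limma tests compared arms or hairpins within each mouse, and with 1 group there were no groups to pair. Depth is unknown and limits miR-143-5p most.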

Other observations

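Of 14 miRNAs reported as raised in fat of obese mice, 12 exceeded the floor in every mouse. The list median was 10.22 log2 units, and miR-143-3p was the highest. It alone made up 5.87% ± 0.670 of the summed normalized counts, out of 7.50% ± 0.567 for the whole list (SD, n = 3). The next were miR-103-3p at 13.81 ± 0.33, tied to insulin sensitivity, miR-21a-5p at 13.70 ± 0.14 and miR-221-3p at 11.62 ± 0.18 log2 units. Of 10 miRNAs reported as lowered in obese fat, 8 exceeded the floor in every mouse and the list median was 8.61. The highest were miR-378a-3p at 16.07 ± 0.63, miR-30a-3p at 11.34 ± 0.16, miR-204-5p at 9.77 ± 0.20 and miR-193a-3p at 9.75 ± 0.50. With detection set at 10 normalized counts, 5 of these 10 passed. No lean or control diet was compared, so these levels do not measure a response to obesity or to EPA.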
